A study of Mus musculus with 12 samples.

Results

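Lysosomes are acidic organelles in which proteins, lipids, and sugars are broken down, and autophagy is the route by which a cell wraps its own contents in a membrane and delivers them there. A set of 39 genes of both systems was examined in MDSCs, immunosuppressive myeloid cells that had been grown from bone marrow. The set holds 3 transcription factors, 6 lysosome membrane proteins, 3 proteins that handle cholesterol, 6 hydrolases that act on sugar chains, 3 proteins of sphingolipid breakdown or of the granulin family, 6 subunits of the proton pump, a cargo receptor with 5 proteins of the Atg8 family, and 6 proteins that start autophagy or attach Atg8 proteins to membranes. Each member was taken by its gene symbol from a table of raw counts, and cathepsins were left out. All 39 symbols were present, each as 1 entry, and all 39 were among the 17676 symbols tested, so no member was lost to the filter on low counts.

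Wild-type mouse cells in 3 groups were compared, with 4 libraries in each. The methods describe bone marrow of female C57BL/6 mice cultured with IL-6 and GM-CSF, from which nonadherent cells were harvested and purified with a CD11b+Gr1+ kit, although the tissue label reads CNS. The unmodified cells are called MDSC. In MDSC-NP-Blk, blank PLGA nanoparticles (NPs) had been attached to the cell surface by azido-DBCO click chemistry, and in CITED the attached particles carried rapamycin, an inhibitor of the kinase mTOR. Cells of both particle groups had been given an acetylated azido sugar in culture (Ac4GalNAz in the methods, Ac4ManNAz elsewhere in the text of the study), and whether the MDSC group was given it too is not clear from the sources. All 3 groups were kept with IL-6 before RNA was extracted. The comparison of MDSC-NP-Blk with MDSC asks what the blank particle and its attachment go along with, that of CITED with MDSC-NP-Blk asks about the rapamycin load, and that of CITED with MDSC asks about both together. The 2 comparisons with MDSC share the same 4 MDSC libraries.

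In nutrient-rich cells the kinase complex mTORC1 sits on the lysosome surface, phosphorylates the transcription factors Tfeb and Tfe3, and keeps them in the cytoplasm. When mTORC1 is inactive these factors enter the nucleus and bind short E-box sequences, known as CLEAR elements, near many lysosome and autophagy genes. mTORC1 also holds back the kinase Ulk1, which starts autophagy. Phagocytes are rich in lysosomes because they digest what they take up. RNA levels, which are all that was measured here, do not report where a factor is in the cell, how acidic a lysosome is, or how fast autophagy runs.

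The libraries held 20604809 to 37855478 counts assigned to genes, and a member's raw count in a library was between 325 and 322059, far above the 3 counts taken as the floor. Values below are normalized counts, that is, counts divided by the library size and its TMM factor and brought to the size of the mean library, and they are listed in the order of replicates 1 to 4. A difference "passed" where edgeR's quasi-likelihood test gave an adjusted p below 0.05 over all 17676 symbols, and the fold threshold of the study, a log2 fold change of 1 or more in either direction, was counted beside it. TMM factors ran from 1.118 to 1.148 in MDSC and from 0.921 to 0.947 in the 2 particle groups, so that factors and groups moved together. With library totals in place of these factors, the median log2 fold change of genes with a mean above 50 shifted from 0.016 to -0.26 in CITED against MDSC and from 0.0025 to -0.26 in MDSC-NP-Blk against MDSC. The relation of expression to transcript length also differed between libraries, with a Spearman rho of 0.218 to 0.346 in MDSC, -0.422 and -0.243 in MDSC-NP-Blk replicates 1 and 4, -0.0468 and 0.0921 in MDSC-NP-Blk replicates 2 and 3, and -0.341 to -0.187 in CITED. Their part in the results was not tested beyond the alternatives named.

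Of 6 genes of the myeloid cell surface and lineage, Itgam, Ly6g, Ly6c2, Spi1, and Ptprc had means of 3934 or more in each group, and Ly6c1 had means of 33.2 in MDSC, 41.2 with blank particles, and 16.3 in CITED. Of these, 3 were higher and 2 lower (Ly6c1 and Ly6c2) in CITED than in MDSC, 5 were higher and 0 lower in MDSC-NP-Blk than in MDSC, and 1 was higher and 2 were lower (Ly6c1 and Ly6c2) in CITED than in MDSC-NP-Blk. Ly6c2, a marker of monocytic cells, had log2 fold changes of -0.35, 0.39, and -0.73 in that order. Because lysosome genes are high in macrophages, markers of that lineage were set beside the members. Of 11 monocyte and macrophage markers, 2 were higher and 8 lower in CITED than in MDSC, 2 were higher and 8 lower in MDSC-NP-Blk than in MDSC, and 1 was higher and 6 were lower in CITED than in MDSC-NP-Blk. Their summed level was 24022 to 25672 in libraries of MDSC, 28048 to 31054 with blank particles, and 29702 to 30633 in CITED, a rise carried by Csf1r, the receptor of a monocyte growth factor, whose mean went from 11316 to 21167 and 22569.6. Of 10 neutrophil markers, 5 were higher and 3 lower in CITED than in MDSC, 9 were higher and 0 lower in MDSC-NP-Blk than in MDSC, and 3 were higher and 5 lower in CITED than in MDSC-NP-Blk. Beside the marker counts, 22.2%, 19.9%, and 10.5% of all symbols were higher in that order, and 22.2%, 18.6%, and 11.4% lower. Among the 5493 symbols with a mean of at least 692, 46.5%, 45%, and 20.6% were higher, and 29.7%, 24.4%, and 19.4% lower. The neutrophil counts in CITED against MDSC were near these last shares. The 4 eosinophil markers summed to 30889 to 36839 in libraries of MDSC, 24692 to 29519 with blank particles, and 10054 to 10248 in CITED. Epx and Prg2 carried this sum, with means of 19824 and 14377 in MDSC and 3740 and 5983 in CITED. Of the 4, 1 was higher (Siglecf) and 2 were lower in CITED than in MDSC. In MDSC-NP-Blk against MDSC 0 were higher and 1 was lower, and in CITED against MDSC-NP-Blk 0 were higher and 2 lower. The 8 dendritic cell markers summed to 11592 to 12470.0 in MDSC libraries, 8184 to 8650.0 with blank particles, and 10149.7 to 11088 in CITED, and the 6 mast cell and basophil markers to 6232 to 6620.3, 7259.9 to 8167, and 4806 to 5032. Itgax made up most of the dendritic sum, with means of 11032, 7278, and 9467. Of the 8, 2 were higher and 2 lower in CITED than in MDSC, with 1 and 2 in MDSC-NP-Blk against MDSC. Between the particle groups 2 were higher and 0 lower. For the mast cell and basophil markers these counts were 0 and 4, 4 and 0, and 0 and 6. T cell, B cell, and NK cell markers summed to at most 369 in any library, with Ncr1 and Eomes at or under the floor throughout. The part of cell makeup in what follows was not tested, and in bulk RNA a change in the share of a cell type cannot be told apart from a change in RNA per cell.

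Most members rose in both particle groups, and most were higher in CITED than in MDSC-NP-Blk. In CITED against MDSC, 34 of 39 members rose, 1 fell (Uvrag), and 4 did not pass (Glb1, Neu1, Atp6v1a, and Wipi1). The median log2 fold change was 0.58 over the members and -0.052 over all symbols tested, of which 22.2% rose and 22.2% fell. In MDSC-NP-Blk against MDSC, 26 members rose, 4 fell (Atp6v0d2, Lipa, Atp6v1a, and Neu1), and 9 did not pass, beside 19.9% of all symbols that rose and 18.6% that fell, with medians of 0.27 and -0.027. In CITED against MDSC-NP-Blk, 28 members rose, 2 fell (Wipi1 and Glb1), and 9 did not pass, beside 10.5% and 11.4% of all symbols, with medians of 0.23 and 0. The members are well expressed, and well-expressed genes passed more often. Among the 5493 symbols with a mean of at least 692, the lowest mean of a member, the shares that rose were 46.5%, 45.0%, and 20.6% in the same order of comparisons, and the shares that fell were 29.7%, 24.4%, and 19.4%. Their median log2 fold changes were 0.11, 0.10, and 0.0063, beside 0.58, 0.27, and 0.23 over the members.

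Most members did not reach the fold threshold of the study. In CITED against MDSC 7 did (17.9%), namely Cd68, Npc2, Sqstm1, Map1lc3a, Map1lc3b, Gabarap, and Gabarapl1. There were 2 (5.13%) in MDSC-NP-Blk against MDSC (Npc2 and Map1lc3a) and 1 (2.56%) in CITED against MDSC-NP-Blk (Atp6v0d2). Of all symbols, 9.99%, 4.74%, and 2.65% passed it, so the member share was above that of all symbols in CITED against MDSC and near it in the other comparisons. Under library totals alone, 27 members were higher and 5 lower in CITED against MDSC, 16 were higher and 10 lower in MDSC-NP-Blk against MDSC, and 28 were higher and 2 lower in CITED against MDSC-NP-Blk. In CITED against MDSC the calls of 7 members that rose were lost (Lamp2, Npc1, Lipa, Man2b1, Atp6v1h, Becn1, and Atg5), and 4 members newly fell (Glb1, Neu1, Atp6v1a, and Wipi1). In MDSC-NP-Blk against MDSC 10 rises were lost (Mitf, Lamp2, Cd63, Cd68, Gla, Glb1, Man2b1, Psap, Atp6v0d1, and Gabarapl2), and 6 members newly fell (Npc1, Gaa, Asah1, Atp6v1h, Becn1, and Uvrag). The fold threshold was then reached by 2 members in CITED against MDSC (Npc2 and Sqstm1), 0 in MDSC-NP-Blk against MDSC, and 1 in CITED against MDSC-NP-Blk. With either scaling, 36, 32, and 35 of the 39 members lay above the median of genes with a mean above 50. A scaling shifts all genes of a comparison by about the same amount, so this count could hardly change. The median of the members went from 0.58 to 0.30, from 0.27 to 0.0092, and from 0.23 to 0.22 under library totals alone. The length correction changed fewer calls but also lowered the fold counts, to 3, 1, and 1. Those left were Npc2, Sqstm1, and Gabarapl1 in CITED against MDSC, Npc2 in MDSC-NP-Blk against MDSC, and Atp6v0d2 in CITED against MDSC-NP-Blk. Cd68, Map1lc3a, Map1lc3b, and Gabarap thus no longer reached it in CITED against MDSC. With only MDSC-NP-Blk libraries 2 and 3, or only 1 and 4, kept in that group, a choice made after seeing the data, 26 members rose and 4 fell against MDSC in each case. They were not all the same members with libraries 1 and 4. The calls of Glb1 (0.10, adjusted p = 0.3) and Neu1 (-0.13, adjusted p = 0.0918) were lost, Wipi1 newly rose (0.25, adjusted p = 0.0107), and Npc1 newly fell (-0.16, adjusted p = 0.0432). In CITED against MDSC-NP-Blk, 27 rose and 1 fell with either pair. Libraries 2 and 3 lost the calls of Lamp2, Wipi1, and Atg7 and gained that of Map1lc3b. Libraries 1 and 4 lost those of Glb1, Atp6v1h, and Gabarap and gained that of Mitf.

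**Figure D1:**
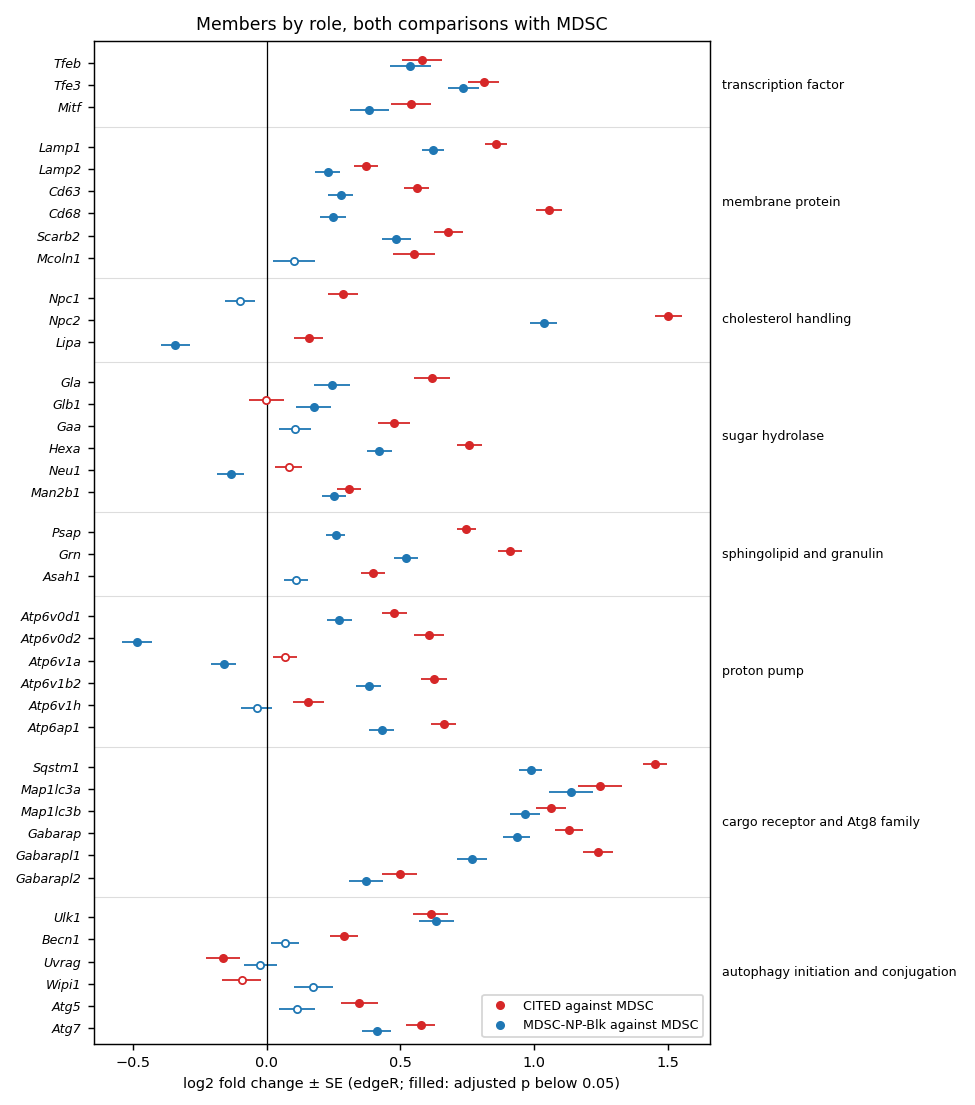
Log2 fold change (x axis) of each member (y axis, grouped by role) in CITED against MDSC (red) and MDSC-NP-Blk against MDSC (blue), with the standard error as bars, n = 4 libraries a group. Filled points passed the test, open points did not; Npc2 and Sqstm1 are the red points farthest to the right (1.501 and 1.45), and Atp6v0d2 and Lipa lie on opposite sides of 0 in the 2 comparisons, although the red value of Lipa turns to -0.12 under library totals alone.

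**Figure D2:**
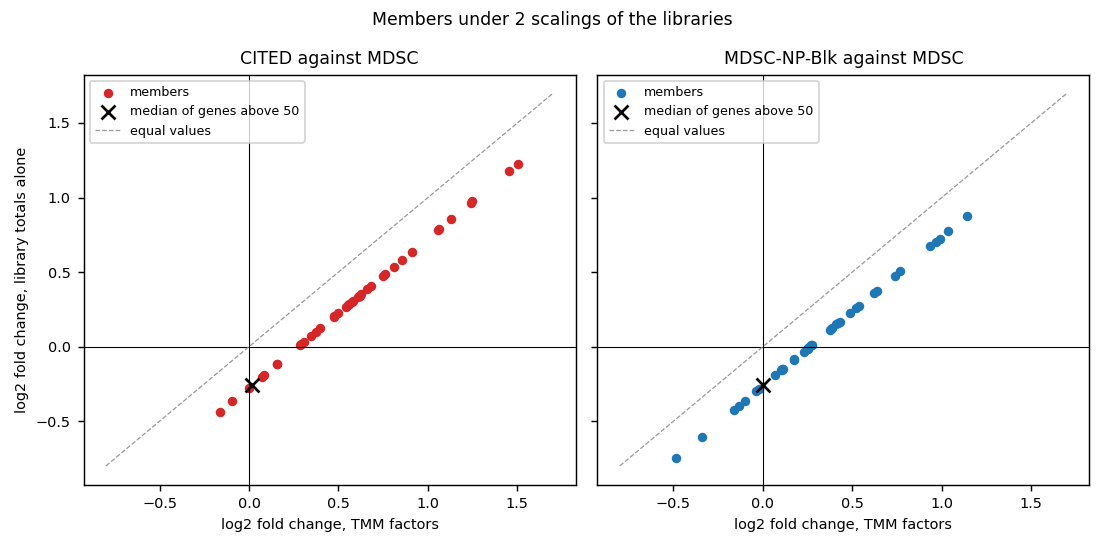
Log2 fold change of each member with TMM factors (x axis) and with library totals alone (y axis) in the 2 comparisons with MDSC, each point 1 member, the cross the median of genes with a mean above 50 and the dashed line equal values. The members shift down by about the same amount as the cross, which lies at -0.26 on the y axis in both panels. Of the 39 members, 36 and 32 lie above it, a count that such a shared shift could hardly change.

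The transcription factors that drive lysosome genes rose in both particle groups against MDSC, and none passed the test between the particle groups, although Mitf in MDSC-NP-Blk against MDSC did not pass under library totals alone (0.12, adjusted p = 0.195). Tfeb (chr17:48047837-48103348 in GRCm39, the build of all gene positions given here) had normalized counts of 637, 718, 691, and 648 in MDSC, 895, 999, 929.8, and 1082 in MDSC-NP-Blk, and 1028, 921, 1025, and 1052 in CITED. No library of either particle group overlapped with MDSC, whereas the particle groups overlapped with each other. Its log2 fold change was 0.58 ± 0.076 (SE, adjusted p = 6.11e-08) in CITED against MDSC, 0.54 ± 0.076 (adjusted p = 4.09e-07) in MDSC-NP-Blk against MDSC, and 0.044 ± 0.075 (adjusted p = 0.761) in CITED against MDSC-NP-Blk.

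For Tfe3, the close relative of Tfeb on chromosome X (chrX:7628761-7641444), the counts were 1489, 1516, 1483, and 1636 in MDSC, 2509, 2579, 2711, and 2395 in MDSC-NP-Blk, and 2700.0, 2584, 2869, and 2594 in CITED. The gap to MDSC was the widest of the 3 factors, with log2 fold changes of 0.81 ± 0.058 (SE, adjusted p = 4.85e-14) for CITED and 0.74 ± 0.058 (adjusted p = 1.19e-12) for MDSC-NP-Blk, and the particle groups again overlapped (0.076 ± 0.057, adjusted p = 0.397). Mitf (chr6:97783950-97998323), which binds the same E-box and is best known from pigment cells, osteoclasts, and mast cells, had counts of 801, 889.8, 783, and 899 in MDSC, 1005, 1187, 1193, and 1007 in MDSC-NP-Blk, and 1171, 1234, 1274, and 1225 in CITED. It was higher than MDSC by 0.54 ± 0.074 (SE, adjusted p = 1.52e-07) in CITED and 0.38 ± 0.074 (adjusted p = 6.16e-05) in MDSC-NP-Blk. Between the particle groups, Mitf differed by 0.16 ± 0.074 (adjusted p = 0.139). The interval of the difference between the particle groups, 2 SE to each side of these values, includes 0 for Tfeb and Tfe3 but not for Mitf, whose value passed with the length correction (0.20, adjusted p = 0.0224) or with only MDSC-NP-Blk libraries 1 and 4 kept (0.29, adjusted p = 0.00792).

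The letters that these factors bind were looked for in promoters. RefSeq promoter sequences (GRCm38.p6, 250 bases before to 50 bases after the start of a gene) were at hand for 32 members and not for Npc1, Asah1, Atp6v0d2, Atp6v1b2, Atp6v1h, Map1lc3a, and Becn1. The E-box CACGTG, which reads the same on both strands, was in 9 of the 32 (28.1%), namely Lamp1, Mcoln1, Gla, Glb1, Gaa, Atp6v0d1, Atp6v1a, Atg5, and Atg7, and in 1957 of 27025 promoters of all genes (7.24%). The longer palindrome TCACGTGA, the core of a CLEAR element, which contains the E-box, was in 4 members (12.5%) and in 272 of all promoters (1.01%). Lamp1 held the E-box 4 times, with first bases at positions -61, -45, -28, and -15 from its start, and in no case as the longer core. A match of letters is a description of these windows and does not show that a factor binds there.

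The promoters that hold the longer core are shown, with the core in capitals, because all 4 genes moved in the same direction in a comparison. In CITED against MDSC-NP-Blk they rose, by a log2 fold change of 0.45 for Mcoln1, 0.37 for Gla, 0.21 for Atp6v0d1, and 0.23 for Atp6v1a. Of all 39 members, 28 (71.8%) rose in that comparison, so a rise there does not set these genes apart from the other members. In Mcoln1 the core begins at position -46 from the start (chr8:3500269-3500568, + strand), and an E-box at -71 is left in lower case. Gla holds 2 cores, at -228 and -195 (chrX:134600956-134601255, - strand), Atp6v0d1 holds it at -4 (chr8:105566015-105566314, - strand), and Atp6v1a at -132 (chr16:44139210-44139509, - strand).
Mcoln1: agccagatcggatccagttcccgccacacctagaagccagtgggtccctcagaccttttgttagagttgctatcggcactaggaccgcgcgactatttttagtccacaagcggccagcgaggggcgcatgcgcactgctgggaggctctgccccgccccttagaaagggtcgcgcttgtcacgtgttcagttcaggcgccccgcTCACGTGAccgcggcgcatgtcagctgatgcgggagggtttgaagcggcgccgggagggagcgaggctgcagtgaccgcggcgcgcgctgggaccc
Gla: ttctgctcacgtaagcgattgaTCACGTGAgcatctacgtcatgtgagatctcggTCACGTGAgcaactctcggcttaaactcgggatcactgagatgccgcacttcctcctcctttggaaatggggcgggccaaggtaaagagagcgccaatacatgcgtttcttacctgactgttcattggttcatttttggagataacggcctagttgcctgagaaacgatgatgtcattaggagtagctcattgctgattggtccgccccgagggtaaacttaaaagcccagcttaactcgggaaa
Atp6v0d1: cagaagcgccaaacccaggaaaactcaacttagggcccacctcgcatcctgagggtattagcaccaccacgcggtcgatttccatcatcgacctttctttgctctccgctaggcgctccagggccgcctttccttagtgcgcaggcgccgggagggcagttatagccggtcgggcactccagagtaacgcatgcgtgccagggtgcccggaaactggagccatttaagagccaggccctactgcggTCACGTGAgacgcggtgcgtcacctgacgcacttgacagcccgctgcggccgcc
Atp6v1a: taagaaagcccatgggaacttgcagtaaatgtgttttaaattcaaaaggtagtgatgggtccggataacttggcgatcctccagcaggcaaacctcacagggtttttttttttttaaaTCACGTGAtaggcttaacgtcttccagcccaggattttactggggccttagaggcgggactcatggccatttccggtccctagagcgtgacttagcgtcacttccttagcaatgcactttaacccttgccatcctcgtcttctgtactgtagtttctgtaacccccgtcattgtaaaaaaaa
In CITED against MDSC, Mcoln1 (0.55), Gla (0.62), and Atp6v0d1 (0.48) rose, and Atp6v1a did not pass (0.070, adjusted p = 0.23). Against MDSC the same genes did not move alike in MDSC-NP-Blk either, with 0.25 for Gla and 0.27 for Atp6v0d1, which passed, 0.10 for Mcoln1, which did not (adjusted p = 0.323), and -0.16 for Atp6v1a, which fell. Under library totals alone the value of Gla turned to -0.017, that of Mcoln1 to -0.16, and that of Atp6v0d1 was 0.0092 (adjusted p = 0.91).

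The cargo receptor Sqstm1 and the Atg8 family had the highest median differences from MDSC of the 8 role groups. Atg8 proteins are attached to the growing autophagosome membrane, where Sqstm1 links them to ubiquitin-tagged cargo and is itself degraded with it. All 6 genes of the group rose in both comparisons with MDSC, with median log2 fold changes of 1.18 (CITED) and 0.95 (MDSC-NP-Blk), and all but Gabarapl2 in MDSC-NP-Blk (0.11, adjusted p = 0.172) still rose under library totals alone. With TMM factors, 46.5% (CITED) and 45% (MDSC-NP-Blk) of well-expressed symbols rose against MDSC. With the length correction all 6 still rose in both comparisons. Map1lc3a, Map1lc3b, and Gabarap then fell short of the fold threshold in CITED against MDSC, and Map1lc3a in MDSC-NP-Blk against MDSC. Map1lc3a and Map1lc3b have the shortest transcripts of the members (823 and 889 bases). In CITED against MDSC-NP-Blk, 3 of the 6 rose (Sqstm1, Gabarap, and Gabarapl1), with a median of 0.16 over the 6, beside 20.6% of well-expressed symbols that rose.

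Sqstm1 (chr11:50089572-50107684, - strand) had normalized counts of 5853, 6353, 6139, and 6152 in MDSC, 12047, 12375, 12145, and 11989 in MDSC-NP-Blk, and 16868, 16611, 16828, and 16675 in CITED. The 3 groups were fully separate, in the order MDSC, MDSC-NP-Blk, CITED, and the libraries of a group lay close together. Its log2 fold change was 1.45 ± 0.044 (SE, adjusted p = 7.64e-24) for CITED and 0.99 ± 0.044 (adjusted p = 5.72e-19) for MDSC-NP-Blk against MDSC, the lowest adjusted p of any member in both comparisons, and 0.46 ± 0.043 (adjusted p = 1.94e-10) for CITED against MDSC-NP-Blk.

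Gabarap (chr11:69881888-69886109), an Atg8 protein that acts late in autophagosome closure, had counts of 8217, 8819, 7794, and 7978 in MDSC, 16756, 15443, 14402, and 16157 in MDSC-NP-Blk, and 19056, 17616, 17405, and 17776 in CITED. Both particle groups were about 2 times the level of MDSC, with log2 fold changes of 1.13 ± 0.051 (SE, adjusted p = 2.39e-19) and 0.94 ± 0.051 (adjusted p = 1.22e-16). The smaller difference between them, 0.20 ± 0.050 (adjusted p = 0.0035), no longer passed when only MDSC-NP-Blk libraries 1 and 4 were kept (0.13, adjusted p = 0.0753). Gabarapl1 (chr6:129509725-129520544) separated the 3 groups without overlap, at 1287, 1431, 1439, and 1359 in MDSC, 2478, 2259.7, 2220.3, and 2432 in MDSC-NP-Blk, and 3170.2, 3310.2, 3309, and 3225 in CITED. It rose by 1.24 ± 0.057 (SE, adjusted p = 4.36e-19) in CITED against MDSC, by 0.77 ± 0.057 (adjusted p = 2.86e-13) in MDSC-NP-Blk against MDSC, and by 0.47 ± 0.056 (adjusted p = 3.53e-08) in CITED against MDSC-NP-Blk. Gabarapl2 (chr8:112667322-112682011) moved least in the group against MDSC, at 1105, 1149.5, 1068, and 1153 in MDSC, 1557, 1465, 1309, and 1464 in MDSC-NP-Blk, and 1644, 1544, 1539.8, and 1589 in CITED. Its differences were 0.50 ± 0.064 (SE, adjusted p = 4.58e-08), 0.37 ± 0.064 (adjusted p = 1.16e-05), and 0.12 ± 0.064 (adjusted p = 0.18) in the same order.

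Of the LC3 genes, whose proteins mark autophagosomes in most assays, Map1lc3b (chr8:122317100-122325499) had counts of 4794, 4776, 4584, and 4576 in MDSC, 9960.4, 8618, 7992, and 10013 in MDSC-NP-Blk, and 10024, 9515, 9725, and 9854 in CITED. Both particle groups lay far above MDSC, by 1.06 ± 0.057 (SE, adjusted p = 2.12e-17) and 0.97 ± 0.056 (adjusted p = 7.99e-16). Within MDSC-NP-Blk, replicates 1 and 4, which also had the lowest length correlations of that group, were at the level of CITED, while replicates 2 and 3 were lower. The difference between the particle groups was 0.10 ± 0.056 (adjusted p = 0.245) with all libraries, 0.24 (adjusted p = 0.000161) with only MDSC-NP-Blk libraries 2 and 3, and -0.030 (adjusted p = 0.763) with only 1 and 4. Map1lc3a (chr2:155118217-155119998) had the lowest counts of the members in MDSC, at 374, 401, 386, and 327 in MDSC, 866, 812, 735, and 871 in MDSC-NP-Blk, and 844, 876, 863, and 952 in CITED. It rose by 1.25 ± 0.083 (SE, adjusted p = 7.4e-15) and 1.14 ± 0.083 (adjusted p = 1.64e-13) against MDSC, and between the particle groups its value was 0.11 ± 0.079 (adjusted p = 0.383). The values of Map1lc3b, Gabarapl2, and Cd63 are the less certain ones, because 37.4%, 21.4%, and 38.4% of the 31-base words in their transcripts also occur in transcripts of other genes, which could share their reads.

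**Figure D3:**
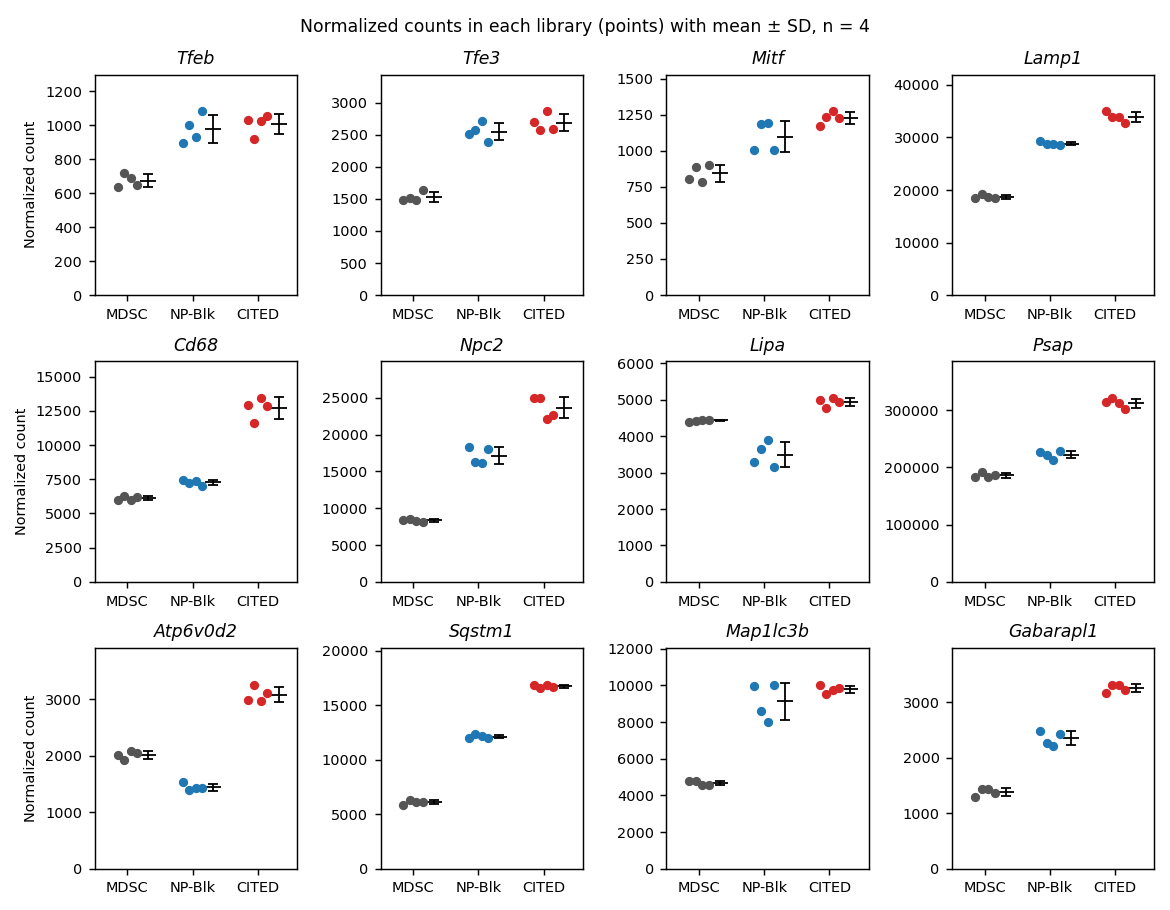
Normalized counts (y axis, from 0) of 12 members in each library of MDSC, MDSC-NP-Blk (written NP-Blk), and CITED (x axis), with the mean and SD (n = 4) beside the points. Sqstm1, Npc2, and Gabarapl1 step up from group to group, Tfeb and Tfe3 overlap between the particle groups, and Atp6v0d2 and Lipa are lowest in MDSC-NP-Blk.

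Of the lysosome membrane proteins, all 6 rose in CITED against MDSC and in CITED against MDSC-NP-Blk, and 5 of 6 in MDSC-NP-Blk against MDSC, with medians of 0.62, 0.26, and 0.26 on the log2 scale. Beside these, 46.5%, 20.6%, and 45% of well-expressed symbols rose in CITED against MDSC, CITED against MDSC-NP-Blk, and MDSC-NP-Blk against MDSC. Lamp1 (chr8:13209121-13227360) and Lamp2 (chrX:37488520-37545340) are the glycoproteins that coat the inner face of the lysosome membrane. Lamp1 had counts of 18468, 19301, 18618, and 18517 in MDSC, 29238, 28739, 28705, and 28635 in MDSC-NP-Blk, and 34992, 33825, 33960.5, and 32839.5 in CITED. The groups did not overlap, and its log2 fold changes were 0.86 ± 0.041 (SE, adjusted p = 9.45e-19), 0.62 ± 0.040 (adjusted p = 1.07e-14), and 0.23 ± 0.040 (adjusted p = 2.81e-05), the earlier values against MDSC (CITED, then MDSC-NP-Blk) and the last between the particle groups. Lamp2, at 11056, 11629, 11167, and 11538 in MDSC, 12407, 14132, 13552, and 13049.9 in MDSC-NP-Blk, and 14522, 15049, 14636, and 14558 in CITED, moved less, by 0.37 ± 0.046 (SE, adjusted p = 1.5e-08), 0.23 ± 0.046 (adjusted p = 9.78e-05), and 0.14 ± 0.045 (adjusted p = 0.018). Its value in MDSC-NP-Blk against MDSC turned to -0.034 under library totals alone and was 0.076 with the length correction. Its value in CITED against MDSC-NP-Blk did not pass without MDSC-NP-Blk replicate 1 (0.11, adjusted p = 0.0701) or CITED replicate 2 (0.13, adjusted p = 0.0535).

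Cd68 (chr11:69555037-69557067), a LAMP relative that is used as a stain for macrophages, stood out for its step between the particle groups. Its counts were 6008, 6302, 5961, and 6178 in MDSC, 7473, 7211, 7391, and 6984 in MDSC-NP-Blk, and 12943, 11589, 13427, and 12886 in CITED. CITED lay above both other groups without overlap, by 1.06 ± 0.049 (SE, adjusted p = 4.93e-19) against MDSC and 0.81 ± 0.049 (adjusted p = 6.27e-15) against MDSC-NP-Blk. The value of MDSC-NP-Blk against MDSC was 0.25 ± 0.049 (adjusted p = 6.9e-05), but -0.013 under library totals alone and 0.030 with the length correction. Of the other membrane proteins, the tetraspanin Cd63 rose by 0.56 and 0.28 against MDSC and by 0.28 in CITED against MDSC-NP-Blk, although the second value was 0.072 (adjusted p = 0.169) with the length correction and 0.014 (adjusted p = 0.843) under library totals alone. Scarb2, which carries glucocerebrosidase to the lysosome, rose by 0.68, 0.48, and 0.20 in the same order. The calcium channel Mcoln1 rose by 0.55 in CITED against MDSC and by 0.45 against MDSC-NP-Blk.

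The proteins that take cholesterol out of the lysosome did not move together. Npc2 (chr12:84801334-84820617), a soluble protein that hands cholesterol to the membrane protein Npc1, had counts of 8383, 8578, 8303, and 8188 in MDSC, 18256, 16224, 16079, and 18049 in MDSC-NP-Blk, and 24922, 24950.2, 22176, and 22670.4 in CITED. Every library of MDSC-NP-Blk was near 2 times the MDSC level and every library of CITED was higher still, with log2 fold changes of 1.501 ± 0.051 (SE, adjusted p = 1.73e-22), 1.04 ± 0.050 (adjusted p = 7.22e-18), and 0.47 ± 0.050 (adjusted p = 4.23e-09) in the order of the comparisons above. Npc1 itself rose by 0.29 ± 0.056 (SE, adjusted p = 5.84e-05) in CITED against MDSC and by 0.39 ± 0.056 (adjusted p = 1.94e-06) against MDSC-NP-Blk, and its value in MDSC-NP-Blk against MDSC was -0.10 ± 0.056 (adjusted p = 0.172). Under library totals alone the first was 0.012 (adjusted p = 0.902) and the last was -0.36 (adjusted p = 3.47e-06), and with only MDSC-NP-Blk libraries 1 and 4 kept the last was -0.16 (adjusted p = 0.0432). Lipa (chr19:34469712-34522163), the acid lipase that frees cholesterol from its esters, had counts of 4395, 4429, 4453, and 4442 in MDSC, 3282, 3655, 3899, and 3142 in MDSC-NP-Blk, and 4996, 4785, 5042, and 4929.8 in CITED. It fell in MDSC-NP-Blk against MDSC (-0.34 ± 0.055, adjusted p = 3.97e-06) and rose in CITED against MDSC-NP-Blk (0.50 ± 0.055, adjusted p = 8.61e-09). The rise in CITED against MDSC was small (0.16 ± 0.055, adjusted p = 0.018), did not pass without CITED replicate 3 (0.15, adjusted p = 0.0503), and turned to -0.12 under library totals alone.

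Among the 6 sugar hydrolases, 4 rose in CITED against MDSC, and 4 rose and 1 fell in each of the other comparisons. The share that rose was 66.7% each time. Of well-expressed symbols 46.5% rose in CITED against MDSC, 45.0% in MDSC-NP-Blk against MDSC, and 20.6% in CITED against MDSC-NP-Blk. Hexa, a subunit of beta-hexosaminidase, gave the widest differences from MDSC, 0.76 in CITED and 0.42 in MDSC-NP-Blk, and rose by 0.34 between the particle groups. Gla, the alpha-galactosidase, rose by 0.62, 0.25, and 0.37. Gaa, which breaks down glycogen, rose by 0.48 and 0.37 in the comparisons of CITED, and its value in MDSC-NP-Blk against MDSC was 0.11 ± 0.060 (adjusted p = 0.177). The mannosidase Man2b1 rose by 0.31 and 0.25 against MDSC, with 0.054 ± 0.045 (adjusted p = 0.452) between the particle groups. The sialidase Neu1 fell in MDSC-NP-Blk against MDSC (-0.13 ± 0.051, adjusted p = 0.0371) and rose in CITED against MDSC-NP-Blk (0.22 ± 0.052, adjusted p = 0.00174), and against MDSC its value in CITED was 0.082 ± 0.051 (adjusted p = 0.21). The fall of Neu1 rested on small differences, with adjusted p-values of 0.0536 to 0.0871 without MDSC replicates 1, 2, or 3 or MDSC-NP-Blk replicates 1, 2, or 3. Under library totals alone, the values of Gla, Gaa, and Man2b1 in MDSC-NP-Blk against MDSC turned to -0.017, -0.16, and -0.0090, and that of Neu1 in CITED against MDSC to -0.19 (adjusted p = 0.0019). With the length correction Neu1 was 0.15 (adjusted p = 0.00739) in CITED against MDSC and -0.080 (adjusted p = 0.2) in MDSC-NP-Blk against MDSC, and Gaa newly passed in the latter (0.15, adjusted p = 0.0408). The value of Man2b1 in CITED against MDSC was 0.033 (adjusted p = 0.58) under library totals alone.

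Glb1 (chr9:114230144-114303966), the beta-galactosidase that is used as a stain for senescent cells, was the sugar hydrolase that fell in CITED against MDSC-NP-Blk. Its counts were 1367, 1487, 1288, and 1429 in MDSC, 1559.9, 1619, 1644, and 1465 in MDSC-NP-Blk, and 1383, 1302, 1499.8, and 1379 in CITED. MDSC-NP-Blk tended to the highest values, but the groups overlapped in every comparison. Its log2 fold change was 0.18 ± 0.065 (SE, adjusted p = 0.0292) in MDSC-NP-Blk against MDSC, -0.18 ± 0.065 (adjusted p = 0.0477) in CITED against MDSC-NP-Blk, and -0.0013 ± 0.065 (adjusted p = 1) in CITED against MDSC. Both values that passed were near the threshold. The first had adjusted p-values of 0.0718 to 0.13 without MDSC replicate 1 or 3 or MDSC-NP-Blk replicate 2 or 3 and turned to -0.086 under library totals alone. The other did not pass without MDSC replicate 1, 3, or 4, MDSC-NP-Blk replicate 1, 2, or 3, or CITED replicate 1, 2, or 4, with adjusted p-values of 0.0509 to 0.153. Of the 31-base words of Glb1, 6.93% also occur in the overlapping gene Tmppe.

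Psap (chr10:60113431-60138380), which encodes the precursor of the saposins that help sphingolipid hydrolases reach their substrates, held more counts than any other member. It had normalized counts of 182602, 191516, 183245, and 186737 in MDSC, 226319, 222084, 212985, and 228436 in MDSC-NP-Blk, and 313976, 320966, 311856, and 301302 in CITED. CITED was above both other groups without overlap, by 0.75 ± 0.036 (SE, adjusted p = 1.1e-18) against MDSC and 0.49 ± 0.035 (adjusted p = 6.18e-13) against MDSC-NP-Blk. In MDSC-NP-Blk against MDSC its value was 0.26 ± 0.035 (adjusted p = 2.31e-07) and -0.0042 under library totals alone. Progranulin (Grn), which is cut into granulins in the lysosome, rose by 0.91, 0.52, and 0.39 in the order of the comparisons above. The acid ceramidase Asah1 rose by 0.40 in CITED against MDSC and 0.29 against MDSC-NP-Blk, with 0.11 ± 0.046 (adjusted p = 0.0578) in MDSC-NP-Blk against MDSC. The last value passed with DESeq2 (adjusted p = 0.0199), filterByExpr (adjusted p = 0.0303), upper quartile factors (adjusted p = 0.0309), and the length correction (adjusted p = 0.0381), and turned to -0.15 (adjusted p = 0.00532) under library totals alone.

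Members were also taken as a share of all counts in a library, which is the scaling by library totals alone. By this measure the 39 members took 1.598% to 1.65% in libraries of MDSC, 1.68% to 1.77% with blank particles, and 2.21% to 2.30% in CITED. Such a sum is weighted toward the most abundant members. Psap alone took 0.834% to 0.868%, 0.818% to 0.877%, and 1.15% to 1.23%. Without Psap the members took 0.763% to 0.785%, 0.862% to 0.892%, and 1.06% to 1.07%. By this share every CITED library was above every library of the other groups, with or without Psap, while Psap alone did not separate MDSC-NP-Blk from MDSC.

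The V-ATPase pumps protons into the lysosome, and Atp6v0d1, Atp6v0d2, Atp6v1a, Atp6v1b2, Atp6v1h, and Atp6ap1 encode some of its parts. All 6 rose in CITED against MDSC-NP-Blk and 5 of 6 in CITED against MDSC, whereas in MDSC-NP-Blk against MDSC 3 rose and 2 fell. The shares that rose were 100%, 83.3%, and 50% in that order, beside 20.6%, 46.5%, and 45.0% of well-expressed symbols. The last share was near that of well-expressed symbols. Atp6v0d2 (chr4:19876838-19922614, - strand), the d subunit known from osteoclasts and some macrophages, had counts of 2017, 1926, 2091, and 2052 in MDSC, 1537, 1399.8, 1424, and 1426 in MDSC-NP-Blk, and 2981, 3254, 2969, and 3121 in CITED. All MDSC-NP-Blk libraries were below all MDSC libraries, and all CITED libraries were above all MDSC libraries. It fell by 0.48 ± 0.056 (SE, adjusted p = 9.21e-09) on the log2 scale in MDSC-NP-Blk against MDSC and rose by 0.61 ± 0.055 (adjusted p = 2.08e-11) in CITED against MDSC. Between the particle groups it differed by 1.09 ± 0.057 (adjusted p = 1.38e-16), the only member past the fold threshold there. These directions were the same under library totals alone (-0.75, 0.33, and 1.08).

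Its paralog Atp6v0d1 (chr8:106251086-106292747), which is found in most cells, had counts of 4219, 4374, 4226, and 4029.9 in MDSC, 5102, 4908, 5226, and 5103 in MDSC-NP-Blk, and 6021, 5890.3, 5879, and 5672 in CITED. It stepped up from group to group, by 0.27 ± 0.047 (SE, adjusted p = 1.3e-05) in MDSC-NP-Blk against MDSC and 0.21 ± 0.047 (adjusted p = 0.00107) in CITED against MDSC-NP-Blk, and by 0.48 ± 0.047 (adjusted p = 1.36e-10) in CITED against MDSC. The first of these was 0.0092 (adjusted p = 0.91) under library totals alone. The catalytic subunit Atp6v1a (chr16:43887852-43960076) had counts of 8655, 8384, 8267, and 8482 in MDSC, 7119.9, 7798, 7726, and 7578 in MDSC-NP-Blk, and 8600.3, 9165, 8798, and 8899 in CITED. MDSC-NP-Blk lay below MDSC (-0.16 ± 0.046, adjusted p = 0.00459, or -0.087 with adjusted p = 0.0879 after the length correction) and below CITED (0.23 ± 0.046, adjusted p = 0.000203), and CITED against MDSC gave 0.070 ± 0.046 (adjusted p = 0.23). The last value was 0.18 (adjusted p = 0.000283) with the length correction and -0.20 (adjusted p = 0.000296) under library totals alone. Atp6v1b2 rose by 0.62, 0.38, and 0.24 in the same order (CITED and MDSC-NP-Blk, each against MDSC, then CITED against blank particles), and the accessory protein Atp6ap1 by 0.66, 0.43, and 0.23. Atp6v1h rose by 0.16 ± 0.059 (adjusted p = 0.028) in CITED against MDSC and 0.19 ± 0.059 (adjusted p = 0.0143) against MDSC-NP-Blk. Without CITED replicate 1 these were 0.12 (adjusted p = 0.125) and 0.16 (adjusted p = 0.0695), and the first did not pass either without MDSC replicate 1 (adjusted p = 0.0928), MDSC replicate 3 (adjusted p = 0.0637), or CITED replicate 2 (adjusted p = 0.0593). Under library totals alone it turned to -0.12.

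**Figure D4:**
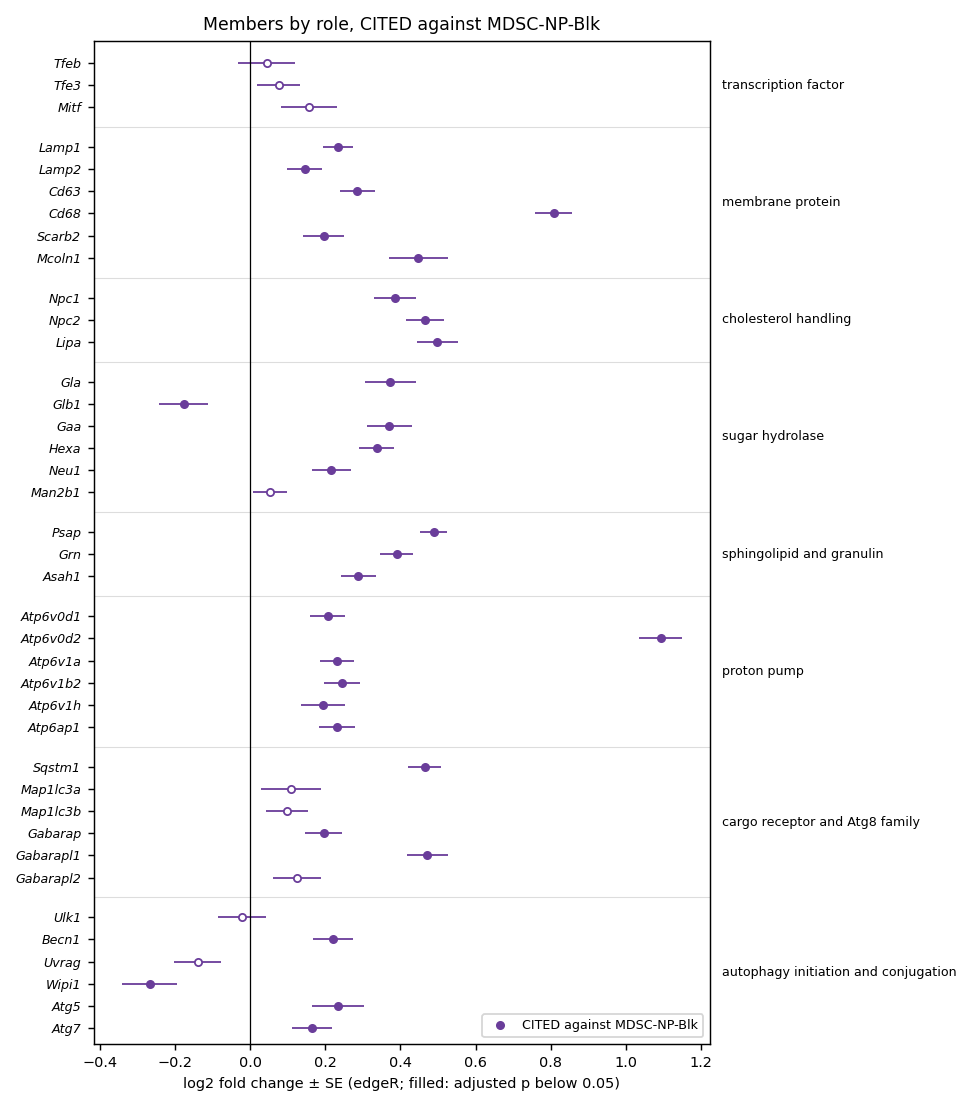
Log2 fold change (x axis) of each member (y axis, grouped by role) in CITED against MDSC-NP-Blk, with the standard error as bars, n = 4 libraries a group, filled where the test was passed. Atp6v0d2 (1.09) and Cd68 (0.81) lie farthest to the right, the 3 transcription factors are open points near 0, and Wipi1 and Glb1 are the filled points below 0.

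Genes that start autophagy or attach Atg8 proteins had median log2 fold changes of 0.32, 0.14, and 0.071 in CITED against MDSC, in MDSC-NP-Blk against MDSC, and between the particle groups. Of the 6, 4 rose and 1 fell in the first comparison, 2 rose and 0 fell in the next, and 3 rose and 1 fell in the last. The shares that rose were 66.7%, 33.3%, and 50%, beside 46.5%, 45.0%, and 20.6% of well-expressed symbols. In MDSC-NP-Blk against MDSC the share was thus below that of well-expressed symbols. Ulk1, the kinase at the head of the route, rose by 0.61 ± 0.065 (adjusted p = 6.26e-10) and 0.64 ± 0.065 (adjusted p = 5e-10) against MDSC, and the particle groups differed by -0.021 ± 0.064 (adjusted p = 0.888). Atg7, the enzyme that activates Atg8 proteins, rose by 0.58, 0.41, and 0.16 in the order of the comparisons above, the last of these without passing when MDSC-NP-Blk replicate 4 (adjusted p = 0.051) or CITED replicate 4 (adjusted p = 0.0947) was left out. Atg5, part of the conjugation complex, rose by 0.35 in CITED against MDSC and by 0.23 against MDSC-NP-Blk, the latter falling to 0.18 (adjusted p = 0.0662) without CITED replicate 1. Becn1, of the lipid kinase complex, rose by 0.29 and 0.22. In MDSC-NP-Blk against MDSC, Atg5 (0.11 ± 0.068, adjusted p = 0.204) and Becn1 (0.069 ± 0.053, adjusted p = 0.329) did not pass, although Becn1 passed with the length correction (0.14, adjusted p = 0.0253) and was -0.19 (adjusted p = 0.00278) under library totals alone. That scaling also ended the calls of Becn1 (0.015, adjusted p = 0.85) and Atg5 (0.073, adjusted p = 0.395) in CITED against MDSC.

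Wipi1 (chr11:109464156-109502793), which binds the lipid made by that complex, had counts of 1202, 1124, 1056, and 1176 in MDSC, 1386, 1264, 1152, and 1344 in MDSC-NP-Blk, and 1009.5, 1019, 1205, and 1038 in CITED. CITED replicate 3 lay apart from the other CITED libraries and overlapped with MDSC and MDSC-NP-Blk. Wipi1 fell in CITED against MDSC-NP-Blk (-0.27 ± 0.074, SE, adjusted p = 0.00656), and with only MDSC-NP-Blk libraries 2 and 3 kept it was -0.18 (adjusted p = 0.102). Its values against MDSC were -0.094 ± 0.074 (adjusted p = 0.322) for CITED and 0.17 ± 0.073 (adjusted p = 0.0583) for MDSC-NP-Blk, and the latter was -0.088 under library totals alone. The former was -0.22 (adjusted p = 0.00644) with the length correction and -0.37 (adjusted p = 7.09e-05) under library totals alone. In MDSC-NP-Blk against MDSC, Wipi1 passed with upper quartile factors (0.19, adjusted p = 0.0399), without MDSC-NP-Blk replicate 3 (0.22, adjusted p = 0.014), with only MDSC-NP-Blk libraries 1 and 4 kept (0.25, adjusted p = 0.0107), and narrowly with a replicate block (adjusted p = 0.0476) or without MDSC replicate 1 or CITED replicate 3. Uvrag (chr7:98533079-98790496), a partner of Becn1, had counts of 1473, 1579, 1414, and 1506 in MDSC, 1460.5, 1485, 1443, and 1483 in MDSC-NP-Blk, and 1259, 1426, 1372, and 1277 in CITED. CITED tended to the lowest values and overlapped with MDSC. It fell in CITED against MDSC (-0.16 ± 0.062, adjusted p = 0.0317), but turned to 0.066 (adjusted p = 0.402) with the length correction, and adjusted p-values were 0.0657 to 0.113 without MDSC replicate 2 or 4 or CITED replicate 1 or 4. Its other values were -0.024 ± 0.062 (adjusted p = 0.806) in MDSC-NP-Blk against MDSC and -0.14 ± 0.063 (adjusted p = 0.12) in CITED against MDSC-NP-Blk.

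Shares within families of paralogs were compared next, because a share within a library does not depend on how libraries are scaled to each other. It can still depend on the length trends described above, which differ between groups, because paralogs differ in length. Atp6v0d2 has 2551 bases and Atp6v0d1 1708, and Lamp1 has 2571 and Lamp2 1778. No share was corrected for these trends. Counts were divided by the length of the canonical transcript in GENCODE release 39, and a share is the percent of the summed counts per kilobase of a family. Differences were tested with an exact two-sided permutation test over 4 against 4 libraries, whose smallest p is 0.0286, adjusted over 12 tests. Each adjusted p of 0.049 below belongs to a test at this smallest p. It lies below 0.05 only because several of the 12 tests reached that value. The share of Atp6v0d2 in the 2 d subunits, in percent, was 24.2, 22.8, 24.9, and 25.4 in MDSC, 16.8, 16.04, 15.4, and 15.8 in MDSC-NP-Blk, and 24.9, 27.00, 25.3, and 26.9 in CITED. Its share was lower in MDSC-NP-Blk than in MDSC (-8.33 percentage points) and higher in CITED than in MDSC-NP-Blk (10.02 points) (exact test, adjusted p = 0.049 for both), while CITED and MDSC overlapped, with a difference of 1.69 points (exact test, adjusted p = 0.137).

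In the LAMP pair the share of Lamp2, in percent, was 46.4, 46.6, 46.4, and 47.4 in MDSC, 38.03, 41.6, 40.6, and 39.7 in MDSC-NP-Blk, and 37.5, 39.1, 38.4, and 39.1 in CITED. Both particle groups were below MDSC without overlap, with differences of -6.73 points in MDSC-NP-Blk and -8.17 points in CITED (exact test, adjusted p = 0.049 for both), and they overlapped with each other (difference of -1.44 points, exact test, adjusted p = 0.156). For Gabarapl1 in the GABARAP subfamily the share, in percent, was 11.8, 12.2, 13.5, and 12.5 in MDSC, 11.6, 11.4, 12.01, and 11.8 in MDSC-NP-Blk, and 12.9, 14.3, 14.4, and 13.9 in CITED. CITED was above MDSC-NP-Blk by 2.18 points (exact test, adjusted p = 0.049), whereas both overlapped with MDSC, with differences of 1.37 points for CITED (exact test, adjusted p = 0.0857) and -0.81 points for MDSC-NP-Blk (exact test, adjusted p = 0.114). Map1lc3a was the minor partner of the LC3 pair in every library, with a share, in percent, of 7.78, 8.31, 8.34, and 7.17 in MDSC, 8.59, 9.23, 9.04, and 8.59 in MDSC-NP-Blk, and 8.34, 9.04, 8.74, and 9.45 in CITED. It was higher than MDSC by 0.995 points in CITED and 0.964 points in MDSC-NP-Blk (exact test, adjusted p = 0.049 for both), and the particle groups differed by 0.031 points (exact test, adjusted p = 0.971).

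**Figure D5:**
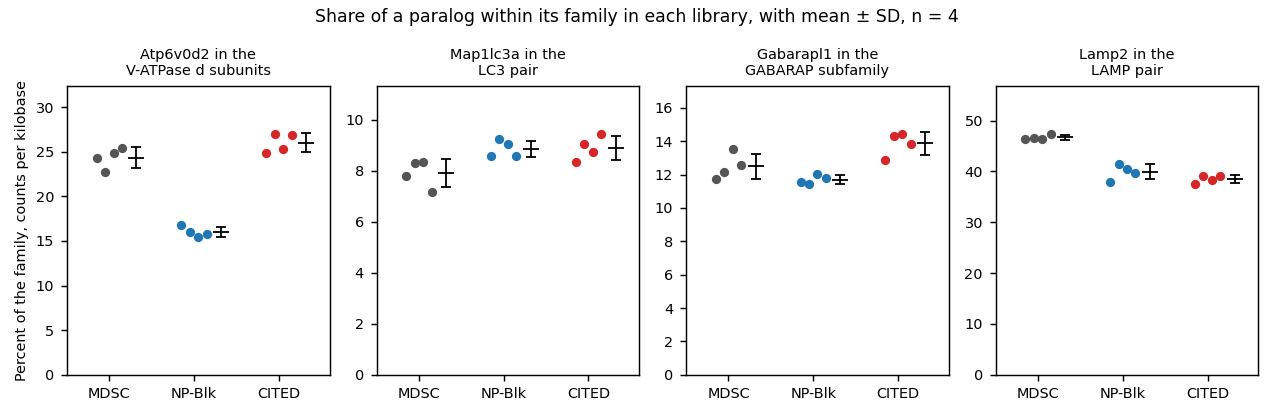
Share of a paralog in the summed counts per kilobase of its family (y axis, percent, from 0) in each library of the 3 groups (x axis), with the mean and SD (n = 4) beside the points. The share of Atp6v0d2 is lowest in MDSC-NP-Blk (mean 16.0%) and higher in MDSC (24.3%) and CITED (26.0%), whose libraries overlap, and that of Lamp2 is lower in both particle groups (40.0% and 38.5%) than in MDSC (46.7%).

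A wider list of 127 genes of the same pathways, all of them tested, held more genes that rose than fell when TMM factors were used. In CITED against MDSC 74 rose and 21 fell, in MDSC-NP-Blk against MDSC 53 rose and 22 fell, and in CITED against MDSC-NP-Blk 55 rose and 9 fell, with median log2 fold changes of 0.26, 0.10, and 0.16. The medians of the well-expressed symbols were 0.11, 0.10, and 0.0063. The shares that rose were 58.3%, 41.7%, and 43.3%, beside 22.2%, 19.9%, and 10.5% of all symbols and 46.5%, 45.0%, and 20.6% of the well-expressed symbols above, so that the share in MDSC-NP-Blk against MDSC was not above that of well-expressed genes. Under library totals alone, 47 rose and 46 fell in CITED against MDSC, and 20 rose and 64 fell in MDSC-NP-Blk against MDSC. The fold threshold was passed by 5, 4, and 1 of them (3.94%, 3.15%, and 0.787%, beside 9.99%, 4.74%, and 2.65% of all symbols).

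Of 12 other proton pump subunits, 11 rose (91.7%) in CITED against MDSC and 10 (83.3%) in CITED against MDSC-NP-Blk, and none fell in either. In these comparisons 46.5% and 20.6% of well-expressed symbols rose. Atp6v0c, which forms the proton-carrying ring, rose from a mean of 15861 in MDSC to 33839.6 in CITED, by 1.09 ± 0.044 (SE). Of 30 other hydrolases and activators, 19 rose (63.3%) and 6 fell in CITED against MDSC, beside 46.5% of well-expressed symbols that rose. The acid nuclease Dnase2a rose by 1.10 ± 0.060 in CITED. Arsb, a sulfatase that acts on glycosaminoglycans, fell from 2524 to 721 (-1.81 ± 0.084), and was also lower than in MDSC-NP-Blk (-1.11 ± 0.084). The glucuronidase Gusb fell by 0.54 ± 0.056 on the log2 scale in MDSC-NP-Blk against MDSC.

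Of 24 other membrane proteins and transporters, 15 rose (62.5%) and 3 fell in CITED against MDSC, beside 46.5% of well-expressed symbols that rose. Laptm5, a lysosome protein of blood cells, rose by 0.84 ± 0.042, and Slc11a1, the metal transporter of phagosomes, by 0.86 ± 0.054 in CITED against MDSC-NP-Blk. The amino acid transporter Slc36a1 fell by 0.82 ± 0.079 on the log2 scale in MDSC-NP-Blk against MDSC. Genes that sort proteins to lysosomes did not rise as a list, with 3 higher and 4 lower of 9 in CITED against MDSC. These are 33.3% and 44.4%, beside 46.5% and 29.7% of well-expressed symbols. Igf2r, the large mannose 6-phosphate receptor, fell in both particle groups, by 0.69 ± 0.084 in CITED and 1.07 ± 0.085 in MDSC-NP-Blk on the log2 scale, and Gga1, an adaptor for such receptors, rose by 0.64 ± 0.056 in CITED.

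Among 13 genes by which nutrients control Tfeb and Tfe3, 9 rose and 1 fell in CITED against MDSC, 5 rose and 2 fell in MDSC-NP-Blk against MDSC, and 5 rose and 0 fell in CITED against MDSC-NP-Blk. The shares that rose were 69.2%, 38.5%, and 38.5%, beside 46.5%, 45.0%, and 20.6% of well-expressed symbols. Lamtor1, which anchors mTORC1 regulators on the lysosome, rose by 0.71 ± 0.058 in CITED. Fnip2, a partner of folliculin, fell by 0.53 ± 0.062 on the log2 scale in MDSC-NP-Blk against MDSC and rose by 0.55 ± 0.063 in CITED against MDSC-NP-Blk. Of 39 other autophagy genes, 17 rose and 7 fell in CITED against MDSC, 14 rose and 6 fell in MDSC-NP-Blk against MDSC, and 7 rose and 5 fell in CITED against MDSC-NP-Blk. The shares that rose, 43.6%, 35.9%, and 17.9%, were below those of well-expressed symbols. Atg2a, a lipid transfer protein, rose by 0.91 ± 0.057 in CITED against MDSC, and Wdr45, which is related to Wipi1, rose by 1.04 ± 0.082 in MDSC-NP-Blk against MDSC. The protease Atg4a, which trims Atg8 proteins, fell by 0.91 ± 0.11 in CITED and 0.72 ± 0.11 with blank particles, both relative to MDSC on the log2 scale. Bnip3, a receptor for the autophagy of mitochondria, fell by 0.84 ± 0.089 in CITED against MDSC-NP-Blk on the log2 scale.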

How the data were processed

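Poly(A)-enriched RNA of 12 libraries was used, grouped by their titles into MDSC, MDSC-NP-Blk, and CITED, with 4 in each group. The authors quantified paired-end reads with Salmon 1.4.0 against GENCODE transcripts of GRCm39, summed transcripts to genes with tximport in R 4.3.2, and deposited whole-number counts per gene symbol, which are neither normalized nor filtered. The GENCODE release, the tximport scaling, and the strand setting are not given in the sources used here. All columns were used, and an entry without a symbol was left out. The table gives gene symbols alone, without identifiers.

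In R 4.3.3, edgeR 4.0.16 tested the 17676 symbols whose counts summed to 2 or more (TMM factors, glmQLFit and glmQLFTest without robust estimation, group as the only term, all 12 libraries), with Benjamini-Hochberg adjustment over all of these symbols. The common biological coefficient of variation was 9.03%. Replicates of a group differed by more than counting noise. In MDSC-NP-Blk the chi-square per degree of freedom was 5.69 between replicates 1 and 4 and 5.91 between 2 and 3. Across these pairs it was 15.7 to 21.8, while in the other groups it was 4.72 to 9.6. The cause of this split was not tested. The titles call the libraries biological replicates, although whether each came from its own culture or donor was not stated. The p-values thus cover the spread between these libraries. The floor at this depth, 3 counts in a library, covers counting error only.

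The members and the other gene lists were chosen with earlier results of these data known, and the lists are described by counts and medians without a test of the list. Values in every library are given for the 3 transcription factors, for the 3 members with the lowest p in each direction of a comparison, for members past the fold threshold, for members with opposite directions in the comparisons with MDSC, and for 4 families of paralogs. Of each other list, genes with the lowest p in a direction are named. Positions and transcript lengths are those of GENCODE release 39 (GRCm39), and the release of the authors may differ. Promoters are those of RefSeq on GRCm38.p6, searched for CACGTG and TCACGTGA on both strands. The length correction removed, in each library, a loess curve (span 0.5) of expression on transcript length. Other alternatives were size factors by RLE or upper quartile, library totals alone, filterByExpr, no filter, the 8 libraries of a comparison alone, DESeq2 1.42.0, a replicate block, and fits that left out 1 library each. Deviations of same-numbered libraries showed little correlation, so the numbers were not taken as pairs, although this cannot exclude a shared donor or culture. The edgeR fit of CITED against MDSC was tested on simulated counts. These held known changes in a small part of the genes, without the group-linked scaling or the length trends described above. Shares and figures were made with Python 3.11.15, numpy 2.4.6, pandas 2.3.3, scipy 1.17.1, and matplotlib 3.10.9. The erythroid marker list is not reported here.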

Additional observations from a re-analysis of the deposited data

Results flagged for a closer look

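In 3 of the 117 groups of 4 libraries (39 members in 3 groups), 1 library lay far from the other three by Dixon's criterion, and chance alone gives about 1 in 20 groups. Npc1 was at 2669 normalized counts in MDSC replicate 2, where the other MDSC libraries were at 2833 to 2864. Becn1 was at 1977 in MDSC replicate 3, with the others at 2073 to 2089. Wipi1 was at 1205 in CITED replicate 3, with the others at 1010 to 1038.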

How the results depend on the processing

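Over the 39 members, 3 comparisons, and all alternatives other than library totals alone, there were 2574 log2 fold changes. Of these, 2485 kept their direction and their side of the threshold, 55 no longer passed, 19 newly passed, and 15 changed sign. Many could hardly move, because a fit that left out a library of the third group kept all 8 libraries of the comparison. The tally is thus no measure of how steady the results are. DESeq2, filterByExpr, and no filter changed 1 call each at most, that of Asah1 in MDSC-NP-Blk against MDSC, which newly passed with DESeq2 and filterByExpr. Members that fell in CITED against MDSC numbered 1, but 0 with upper quartile factors and 0 to 1 when 1 library was left out. Those that fell in CITED against MDSC-NP-Blk numbered 2, but 1 with upper quartile factors, RLE size factors, the 8 libraries alone, or either pair of MDSC-NP-Blk libraries, and 1 to 2 when 1 library was left out. With the length correction, 2 members fell in MDSC-NP-Blk against MDSC (4 without it), and 13 genes of the wider list fell in CITED against MDSC (21 without it). Members past the fold threshold numbered 3, 1, and 1 with it (7, 2, and 1 without it). The cause was not tested.

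Library totals alone gave 5 members lower in CITED against MDSC, 16 higher and 10 lower in MDSC-NP-Blk against MDSC, 47 higher and 46 lower genes of the wider list in CITED against MDSC, and 20 higher and 64 lower in MDSC-NP-Blk against MDSC. It left 2, 0, and 1 members past the fold threshold, and 3, 2, and 1 genes of the wider list (5, 4, and 1 with TMM factors). Since the median of all genes moved with this setting, signs turned for Lipa (-0.12), Neu1 (-0.19), Atp6v1a (-0.20), and Atp6v1h (-0.12) in CITED against MDSC. In MDSC-NP-Blk against MDSC they turned for Lamp2 (-0.034), Cd68 (-0.013), Mcoln1 (-0.16), Gla (-0.017), Glb1 (-0.086), Gaa (-0.16), Man2b1 (-0.0090), Psap (-0.0042), Asah1 (-0.15), Becn1 (-0.19), Wipi1 (-0.088), and Atg5 (-0.15).

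Other signs that turned belonged to values near 0, apart from Uvrag. With the length correction Uvrag was at 0.066 in CITED against MDSC and 0.13 in MDSC-NP-Blk against MDSC, Mcoln1 at -0.0089 and Atp6v1h at 0.025 in the latter, and Ulk1 at 0.051 in CITED against MDSC-NP-Blk. Glb1 in CITED against MDSC was at 0.019 with upper quartile factors and between -0.040 and 0.032 when 1 library was left out. Ulk1 in CITED against MDSC-NP-Blk ran from -0.062 to 0.029 when 1 library was left out and was 0.026 with MDSC-NP-Blk libraries 2 and 3 only, Map1lc3b was at -0.030 with libraries 1 and 4 only, and Uvrag in MDSC-NP-Blk against MDSC ran from -0.049 to 0.0037 when 1 library was left out. The share of Map1lc3a in CITED against MDSC-NP-Blk ranged from -0.15 to 0.22 points.

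With a replicate block, 34 members rose and 1 fell in CITED against MDSC, 27 rose and 4 fell in MDSC-NP-Blk against MDSC (Wipi1 newly passed, at 0.17 with adjusted p = 0.0476), and 28 rose and 2 fell in CITED against MDSC-NP-Blk, with no other call of a member changed. Deviations of same-numbered libraries correlated between -0.0597 and 0.14, and those of other libraries between -0.161 and 0.156. These values do not show pairs and cannot exclude them. Depth did not limit the members, which had at least 325 counts in every library.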
